A study of Mus musculus with 54 samples.

Results

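Mammary glands on the fourth day of involution were compared with glands on the third day, a step of 1 day. The 6 arrays of this comparison are those whose titles name involution day 4 or involution day 3, with 3 mice (A, B and C) at each day, out of 54 arrays in the series. The whole series follows the mouse mammary gland through 18 time points from virgin to regressed gland on 1-channel Affymetrix arrays, with 3 mice per time point. Each array holds RNA of 1 gland from the inguinal pair of 1 mouse, with the lymph node taken out. The day 4 glands came from mice mated at 12 weeks of age that nursed for 7 days and then had their pups removed, 4 days before the gland was collected, and the day 3 glands came from mice treated alike and collected 1 day earlier. Both groups therefore share the mating age, the length of lactation and forced weaning. The labels used here give no strain, allele or drug. All 12422 non-control probe sets were considered, and 7311 genes passed the filter on dim signals and were tested. Of these, 870 are probe sets without exactly 1 symbol, each counted as a gene, so a gene or family can be counted more than once.

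When milk removal stops, the secretory epithelium first stops making milk and sheds dying cells in a phase that renewed suckling can still reverse. A later, irreversible phase follows, in which proteases break down the basement membrane, alveoli collapse, macrophages clear cell remnants and stored milk fat, and adipocytes refill. STAT3 signalling, an acute phase response and lysosomal cathepsins mark the early phase, and matrix metalloproteases and matrix turnover mark the later one. In whole-gland RNA, fewer cells of a type and less RNA per cell cannot be told apart.

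The arrays were alike in scale, with medians of 38.6 to 40 at day 4 and 38.1 to 40 at day 3, and 25.1% to 25.9% of values under the floor of 9.4. Below that floor signals were set to 9.4 before log2 was taken. Some of the 6 mice stood apart, and the results below rest on them in different ways. Arl2bp had signals of 97.2, 63.2 and 65.7 in day 4 mice A, B and C, against 84.3, 416 and 411 in day 3 mice A, B and C. Glo1 had 319.5, 237 and 287 at day 4, against 309, 152 and 143 at day 3. Thus day 3 mouse A had the pattern of the day 4 mice in both genes, and day 3 mice B and C shared another. Day 3 mouse A was also the only one whose closest array belonged to the other day (day 4 mouse C, r = 0.962 across genes), and for 88 of the 111 genes called it was the day 3 mouse nearest to the day 4 level. Day 4 mouse B had a ratio of 3' to 5' Gapdh control signal of 4.39, where the other 5 mice had 0.847 to 1.06. Its beta-actin ratio was 2.27, where the others had 1.36 to 1.61. Such ratios read RNA integrity and labelling. What part these mice have in the differences between the days was not tested, and values without some of them are given for the main results.

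**Figure D1:**
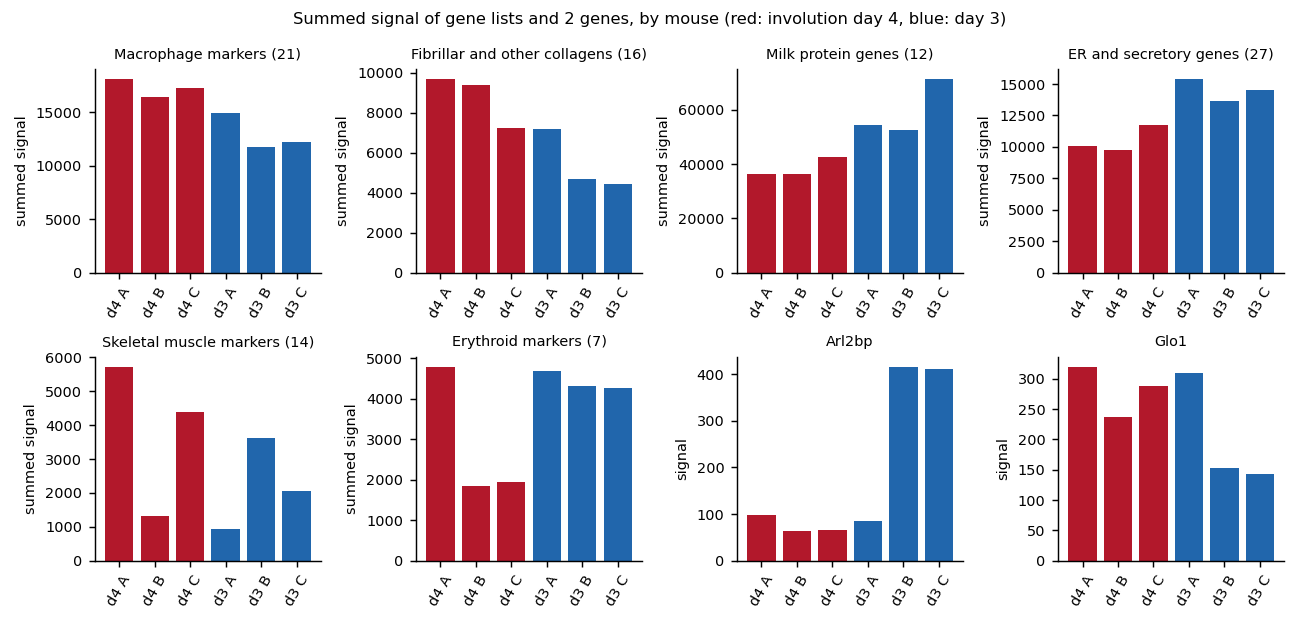
Summed signal per mouse for 6 gene lists (number of genes tested in parentheses) and the signals of Arl2bp and Glo1. Red bars are the day 4 mice A, B and C and blue bars the day 3 mice A, B and C. Macrophage and collagen sums are higher and milk and secretory sums lower in the day 4 mice, and Arl2bp is high only in day 3 mice B and C.

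Of the 7311 genes, 111 (1.52%) differed between day 4 and day 3 at an adjusted p under 0.05. At day 4, 68 genes (0.93%) were higher and 43 (0.588%) lower, and 57 of the higher and 33 of the lower ones differed by more than 2-fold. The signals of the 3 + 3 mice did not overlap for 103 of the 111 called genes, and for 1604 (21.9%) of all genes tested. The median log2 difference of all genes was 0.0083. Called genes with exactly 1 symbol numbered 60 higher and 42 lower. All 102 had the same sign when day 3 mice B and C were left out, that is, against day 3 mouse A alone. For a gene without overlap between the days this sign is fixed beforehand, so the count gives no support. When Arl2bp and Glo1 entered the fit as covariates, 25 genes were called, 14 higher and 11 lower, and all 25 were among the 111. Day 3 mice B and C differed from the day 4 mice in both genes, so these covariates overlap in part with the contrast of days. The median standard error was 0.294 in the main fit and 0.321 with them. A call lost in that fit can therefore go with lower precision as well as with a smaller difference. Without both day 4 mouse B and day 3 mouse A, 106 genes were called, of which 69 were among the 111. Leaving out 1 mouse at a time gave 12 to 217 called genes. In these 6 fits 10 of the 102 stayed called throughout: Apoc2, Adam8, Cpxm1, Acp5 and Stab1 among the higher ones, and St6galnac6, Nucb2, Cidea, Rnase1 and Pigr among the lower ones. For each of the others the call was lost without at least 1 mouse: for 91 of the 102 without day 3 mouse C, for 79 without day 4 mouse A, for 79 without day 4 mouse B, for 74 without day 3 mouse B, for 22 without day 4 mouse C and for 9 without day 3 mouse A.

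**Figure D2:**
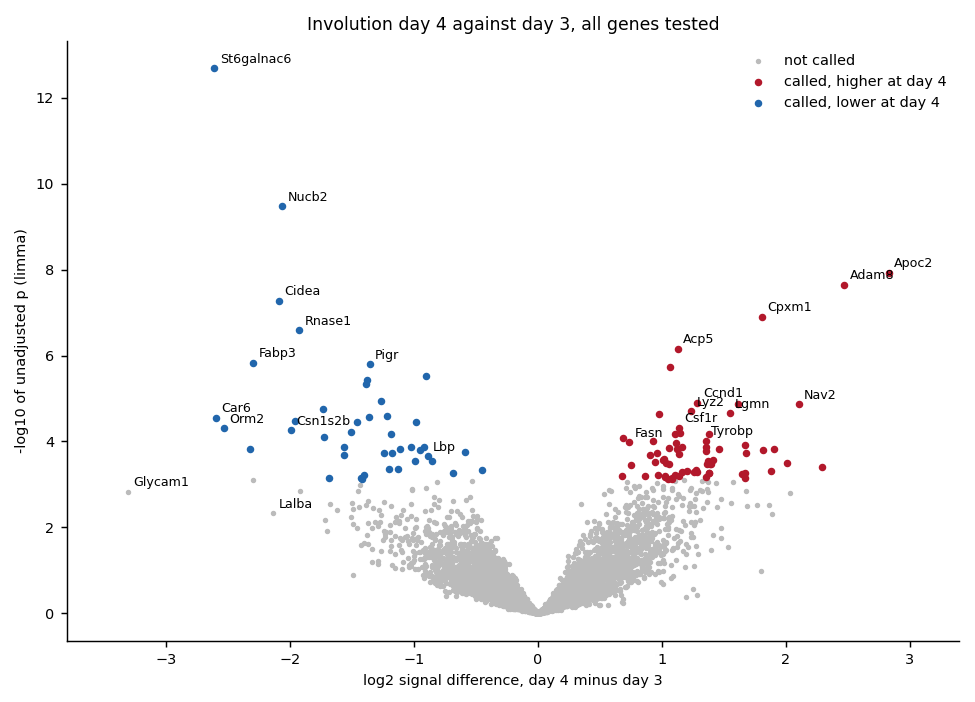
Each point is 1 of 7311 genes, with the log2 signal difference (day 4 minus day 3) on the horizontal axis and -log10 of the unadjusted limma p on the vertical axis. Red points are the 68 genes called higher and blue points the 43 called lower, with St6galnac6 highest on the left and Apoc2 farthest to the right.

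A few macrophage markers rose at day 4, and most others had positive differences that did not pass the test. Of 21 macrophage markers tested, 3 were called higher and 0 lower, against 0.93% and 0.588% of all genes, and 14 had no overlap between the days in the upward direction, against 880 of all 7311 genes (12.0%). The median log2 difference of the list was 0.92, and 0.50 without day 3 mice B and C. Lyz2, the lysozyme of macrophages, had signals of 1662, 1498 and 1546 at day 4, against 768, 659 and 584 at day 3 (mice A, B and C in this order). Every day 4 mouse lay at about the same high level, and every day 3 mouse lay below them (log2 difference 1.23 ± 0.26, adjusted p = 0.0073, called in 4 of 6 left-out fits, lost without day 4 mouse A or day 3 mouse C). Tyrobp, a signalling adaptor of myeloid cell receptors, had 1076, 1178 and 862 at day 4, against 553, 415 and 286 at day 3 (log2 difference 1.35 ± 0.31, adjusted p = 0.018). Csf1r, the receptor of the macrophage growth factor CSF1, had 870.3, 792 and 519 at day 4, against 454, 277 and 266 at day 3 (log2 difference 1.14 ± 0.25, adjusted p = 0.012). In both genes the groups did not overlap, day 3 mouse A was the nearest to day 4, and the difference against mouse A alone was smaller, 0.90 for Tyrobp and 0.64 for Csf1r. Both were called in 2 of 6 left-out fits, and neither was called once Arl2bp and Glo1 entered the model as covariates (adjusted p = 0.18 for Tyrobp and 0.081 for Csf1r). Of the list, 1 marker was called with those covariates and 0 without day 3 mice B and C. A second, dimmer Csf1r probe set gave -0.53, so the probe sets of this gene disagree in sign. Among markers not called, Ctss, a cathepsin of antigen-presenting cells, had 1738, 1974 and 1684 at day 4, against 1257, 940.3 and 895 at day 3 (0.82 ± 0.28, adjusted p = 0.15), and Cd68, a macrophage lysosomal membrane protein, had 659.5, 448 and 630.5 at day 4, against 558, 306 and 222 at day 3 (0.77 ± 0.31, adjusted p = 0.26). Ctss did not overlap between the days, while day 3 mouse A reached into the day 4 range for Cd68. The summed signal of the list was 18081, 16399 and 17260 at day 4, against 14896, 11705 and 12198 at day 3.

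Some lysosomal hydrolases rose as well. In the lysosome list 4 of 23 genes were called higher and 0 lower (background 0.93% and 0.588%), with a median of 0.31 (0.26 without day 3 mice B and C). Acp5, the tartrate-resistant acid phosphatase of macrophages and osteoclasts, had 699, 786 and 590.1 at day 4, against 357, 298 and 291 at day 3 (log2 difference 1.13 ± 0.19, adjusted p = 0.00063). All day 4 mice were well above all day 3 mice, and the call held whichever mouse was left out, and with Arl2bp and Glo1 as covariates (adjusted p = 0.0078). Lgmn, the asparaginyl endopeptidase legumain, had 503, 664 and 456 at day 4, against 305, 173 and 116 at day 3 (log2 difference 1.55 ± 0.32, adjusted p = 0.0075). Ctsk, cathepsin K, which cleaves collagen, had 439, 223 and 247 at day 4, against 197, 121 and 98.8 at day 3 (log2 difference 1.12 ± 0.27, adjusted p = 0.021). Here the day 4 mice were higher without overlap, mostly against day 3 mice B and C: against mouse A alone the log2 difference was 0.81 for Lgmn and 0.55 for Ctsk. Hexa, a subunit of beta-hexosaminidase, was the fourth (log2 difference 0.92 ± 0.22, adjusted p = 0.018). With the covariates Lgmn was called (adjusted p = 0.045), and Ctsk and Hexa were not (adjusted p = 0.11 and 0.13). Ctsl, the cathepsin L of early involution, had 1214, 1370.3 and 1741 at day 4, against 2076, 2014 and 2109 at day 3 and was not called (-0.54 ± 0.19, adjusted p = 0.18). All its day 4 signals lay below all its day 3 signals.

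Among the matrix proteases and their inhibitors 1 of 17 genes was called, where 0.93% of all genes were called higher. It was Adam8, a membrane-bound disintegrin and metalloprotease of myeloid cells. Adam8 had 36.2, 96.4 and 72.7 at day 4, against 16.1, 9.8 and 7.2 at day 3 (log2 difference 2.47 ± 0.36, adjusted p = 4.1e-05). Its day 3 signals sat near the floor, and its mean signal was near or at the floor on every other involution day: 9.47 at day 1, 9.50 at day 2, 11.4 at day 3, 63.3 at day 4 and 9.60 at day 20. Time points near the floor add little spread and narrow the pooled standard error, so the floor sets part of this adjusted p. For Adam8 it was 0.0155 with no floor and 0.0038 with the involution arrays alone. With only the arrays of the compared days Adam8 was not called (limma, adjusted p = 0.156). The median of the list was 0.77, and 0.31 without day 3 mice B and C. Stromelysin 1 (Mmp3), which cuts basement membrane, had 1103, 786 and 830.0 at day 4, against 838, 385 and 331 at day 3 (0.92 ± 0.45, adjusted p = 0.39), and the membrane-type protease Mmp14 had 793, 368 and 441 at day 4, against 408, 193 and 309 at day 3 (0.80 ± 0.36, adjusted p = 0.32). In both, day 3 mouse A reached into the day 4 range. Plat, the tissue plasminogen activator, had 338, 270.4 and 238 at day 4, against 209, 137 and 152 at day 3 without overlap (0.77 ± 0.24, adjusted p = 0.10). The urokinase Plau (96.2, 39.1 and 68.4 at day 4, against 69.4, 44.7 and 46.9 at day 3, 0.27 ± 0.57, adjusted p = 0.91) and the inhibitor Timp1 (340.3, 425 and 339.9 at day 4, against 265, 391 and 278 at day 3, 0.26 ± 0.30, adjusted p = 0.81) overlapped between the days. Mmp2 was too dim to be tested.

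**Figure D3:**
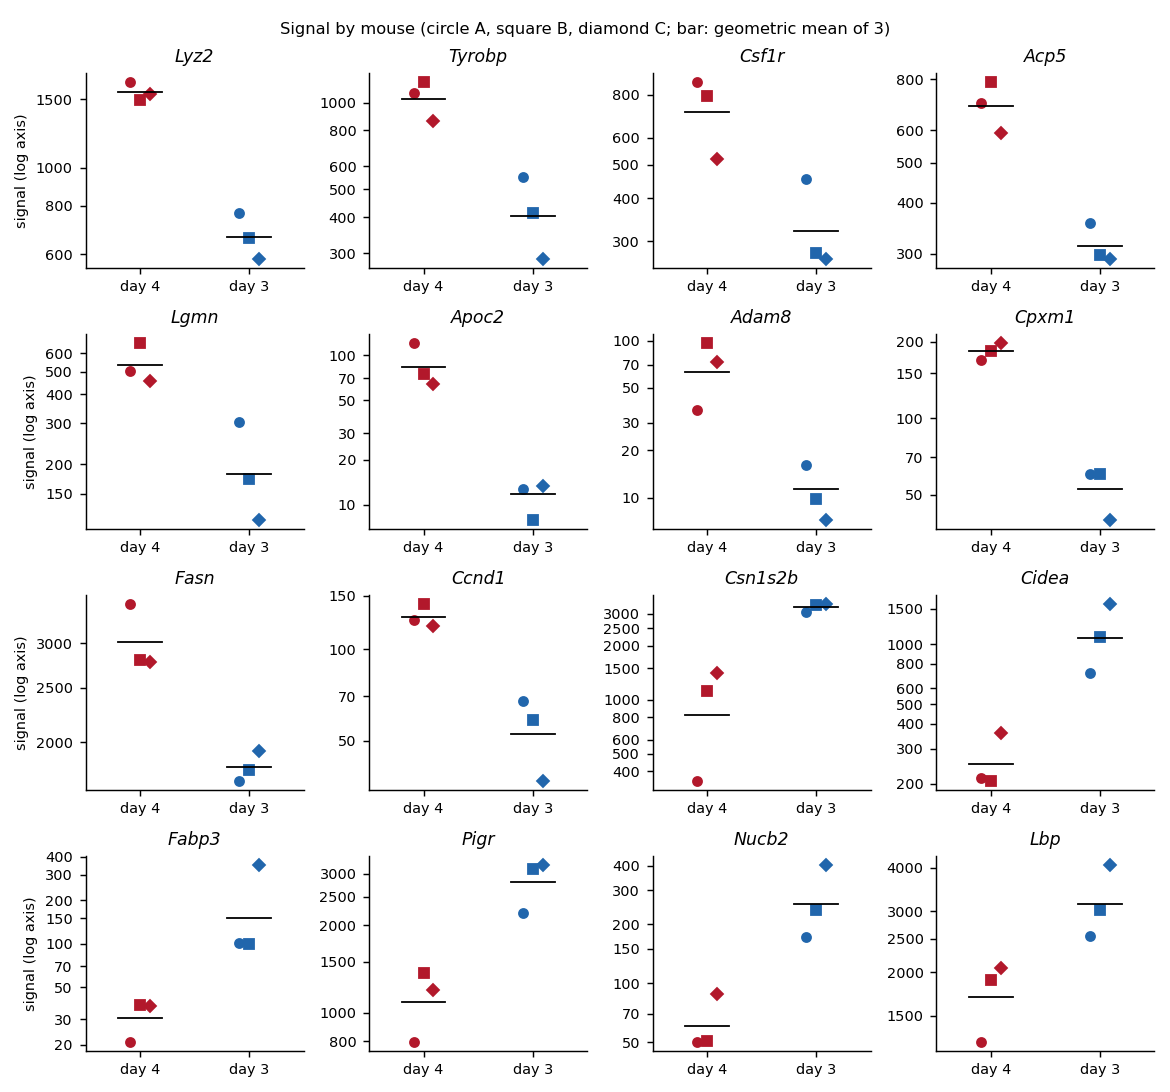
Signal of 16 called genes in each mouse, day 4 in red on the left and day 3 in blue on the right of each panel, on a log axis. Circles are mouse A, squares mouse B, diamonds mouse C, and bars the geometric mean of 3 mice. The days do not overlap in any of the 16 panels, and the day 3 circle lies nearest to day 4 in most of them.

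Lipoprotein genes gave the largest rise. Apoc2, which encodes the activator of lipoprotein lipase, had 120.2, 75.1 and 63.9 at day 4, against 12.8, 7.9 and 13.3 at day 3 (log2 difference 2.83 ± 0.40, adjusted p = 2.9e-05). The day 4 mice were all several-fold higher, the call held in each left-out fit, and the difference was 2.70 against day 3 mouse A alone, where it was no longer called (adjusted p = 0.097). Apoc1 (482, 470.5 and 335 at day 4, against 223, 261 and 173 at day 3, log2 difference 0.97 ± 0.26, adjusted p = 0.046) and the phospholipid transfer protein Pltp (1319, 794 and 629 at day 4, against 569.5, 424 and 336 at day 3, log2 difference 1.01 ± 0.25, adjusted p = 0.029) rose less and lost their call in most left-out fits. They and Apoc2 were the 3 of 9 genes called higher in the cholesterol efflux list, against 0.93% of all genes (0 lower, median 0.52, and 0.16 without day 3 mice B and C). Of 15 fatty acid and triglyceride synthesis genes, 2 were called higher and 0 lower (0.93% and 0.588% of all genes), with a median of 0.40. Fasn, the fatty acid synthase, had 3519, 2796 and 2775 at day 4, against 1709, 1788 and 1934 at day 3 (log2 difference 0.74 ± 0.17, adjusted p = 0.018). Thrsp, a regulator of fatty acid synthesis, had 2739, 1958 and 1918 at day 4, against 884, 1484 and 1199 at day 3 (log2 difference 0.90 ± 0.22, adjusted p = 0.023). For both genes the day 4 mice were all higher, and the difference was no smaller against day 3 mouse A alone, 0.82 for Fasn and 1.30 for Thrsp, where neither was called. Both were called in 2 of 6 left-out fits, and with the covariates Fasn was called (adjusted p = 0.041) and Thrsp was not (adjusted p = 0.12). Adipocyte markers were on the same side without a call: 0 of 16 were called, and 15 of 16 had a positive difference, against 3735 of all 7311 genes. Their median was 0.31 (0.14 without day 3 mice B and C). Adipoq, the hormone adiponectin, had 3086, 2614 and 2488 at day 4, against 2512, 1784 and 1279.7 at day 3 (0.60 ± 0.22, adjusted p = 0.21), and lipoprotein lipase (Lpl) had 1665, 1734 and 1389 at day 4, against 1265, 1029 and 852 at day 3 (0.62 ± 0.20, adjusted p = 0.13). Day 3 mouse A overlapped day 4 for Adipoq, and Lpl did not overlap.

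Single genes of the other immune lists rose, where 0.93% of all genes tested were called higher. The chemokine Ccl8, which attracts monocytes, had 1424, 1236 and 893 at day 4, against 552, 347 and 257 at day 3 (log2 difference 1.67 ± 0.45, adjusted p = 0.043), and it was 1 of 21 chemokine and receptor genes called (median 0.49, and 0.25 without day 3 mice B and C). Irf8, a transcription factor of the macrophage and dendritic lineages, had 154, 161 and 98.7 at day 4, against 65.0, 57.9 and 35.6 at day 3 (log2 difference 1.40 ± 0.36, adjusted p = 0.031) and was 1 of 9 dendritic markers called. Serping1, the C1 inhibitor (log2 difference 1.11 ± 0.30, adjusted p = 0.046), was 1 of 12 complement genes, and Psmb8, a subunit of the immunoproteasome (log2 difference 0.75 ± 0.19, adjusted p = 0.032), was 1 of 20 antigen presentation genes. Icam1, an adhesion molecule of endothelium and leukocytes (log2 difference 1.02 ± 0.28, adjusted p = 0.046), was 1 of 14 endothelial markers. In each of these 5 genes the day 4 mice lay above the day 3 mice without overlap. None stayed called with Arl2bp and Glo1 as covariates (adjusted p = 0.18 for Ccl8, 0.13 for Irf8, 0.29 for Serping1, 0.24 for Psmb8 and 0.20 for Icam1). The log2 differences in that fit were 1.63, 1.42, 0.90, 0.64 and 0.97 in this order. Of the interferon list 0 of 18 genes were called, with a median of 0.11. Lymphocyte markers gave no call either, 0 of 13 T and NK cell markers and 0 of 14 B and plasma cell markers.

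Because STAT3 drives early involution, the 250 bases before the gene start were searched for the STAT-type motif TTCNNNGAA, which reads the same on both strands, in RefSeq promoters of build GRCm38.p6. Of the called genes, 45 higher and 30 lower ones had a promoter in the table. The motif was in 5 of 45 promoters of the higher genes (11.1%) and 1 of 30 of the lower genes (3.33%), against 308 of 5158 genes tested (5.97%) and 1940 of 27025 promoters in the table (7.18%). Irf8 and Enpep hold it too, and the windows below show the other 3 higher genes and the lower one with the motif in capitals, each read 5' to 3' on the strand of its gene. The windows are chr9:21015878-21015926 (plus strand) for Icam1, chr17:34198078-34198126 (plus strand) for Psmb8, chr13:34002843-34002891 (minus strand) for Serpinb6a and chr14:51146795-51146843 (minus strand) for Rnase1, and the motif starts 42, 97, 77 and 56 bases before the gene start in that order.
Icam1: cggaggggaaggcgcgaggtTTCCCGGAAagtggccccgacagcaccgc
Psmb8: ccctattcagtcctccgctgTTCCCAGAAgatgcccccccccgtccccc
Serpinb6a: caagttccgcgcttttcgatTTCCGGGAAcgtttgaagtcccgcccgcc
Rnase1: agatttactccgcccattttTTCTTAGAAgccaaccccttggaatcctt
The NF-kappaB motif (GGGA, any base, TTTCC) was in 0 of 45 and 1 of 30 promoters (0.368% of genes tested), and the interferon response motif (GAAA, any 2 bases, GAAA) in 1 of 45 and 1 of 30 (2.71% of genes tested), each on either strand and counted without regard to overlap with the others. These matches describe letters in a window and show no binding.

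Collagens and other stromal genes had positive differences nearly throughout, with no member called. Of 16 collagen genes 0 were called, 16 had a positive difference and 8 had no overlap. Of all 7311 genes, 3735 had a positive difference and 12.0% had no overlap upward. The collagen median was 0.68 (0.36 without day 3 mice B and C). Summed collagen signals were 9684, 9367 and 7255 at day 4, against 7197, 4670 and 4428 at day 3, so day 3 mouse A came close to the lowest day 4 mouse. The largest difference in the list was that of Col3a1, a fibrillar collagen of loose stroma, with 1415, 1650.0 and 1206 at day 4, against 1078, 586 and 449 at day 3 (1.10 ± 0.31, adjusted p = 0.052). Col1a1, a chain of type I collagen, had 2288, 2207 and 1519 at day 4, against 1756, 1346 and 1348 at day 3 with overlap (0.42 ± 0.27, adjusted p = 0.57). The 15 fibroblast markers had a median of 0.77 (0.26 without day 3 mice B and C), with 0 called. Dpt, the matrix protein dermatopontin, had 401, 314 and 188 at day 4, against 179, 139.8 and 68.2 at day 3 (1.26 ± 0.39, adjusted p = 0.093). Proteoglycans and glycoproteins (0 of 15 called, median 0.65) and basement membrane genes (0 of 14, median 0.40) were similar, and without day 3 mice B and C their medians were 0.20 and -0.01 in this order. Without both day 4 mouse B and day 3 mouse A, 2 collagen genes and 2 fibroblast markers were called higher. A secreted carboxypeptidase-like protein gene outside these lists, Cpxm1, did rise, with 169, 184 and 198 at day 4, against 60.1, 60.3 and 39.7 at day 3 (log2 difference 1.81 ± 0.29, adjusted p = 0.00015). All day 4 signals lay far above day 3, and the difference against day 3 mouse A alone was 1.61.

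**Figure D4:**
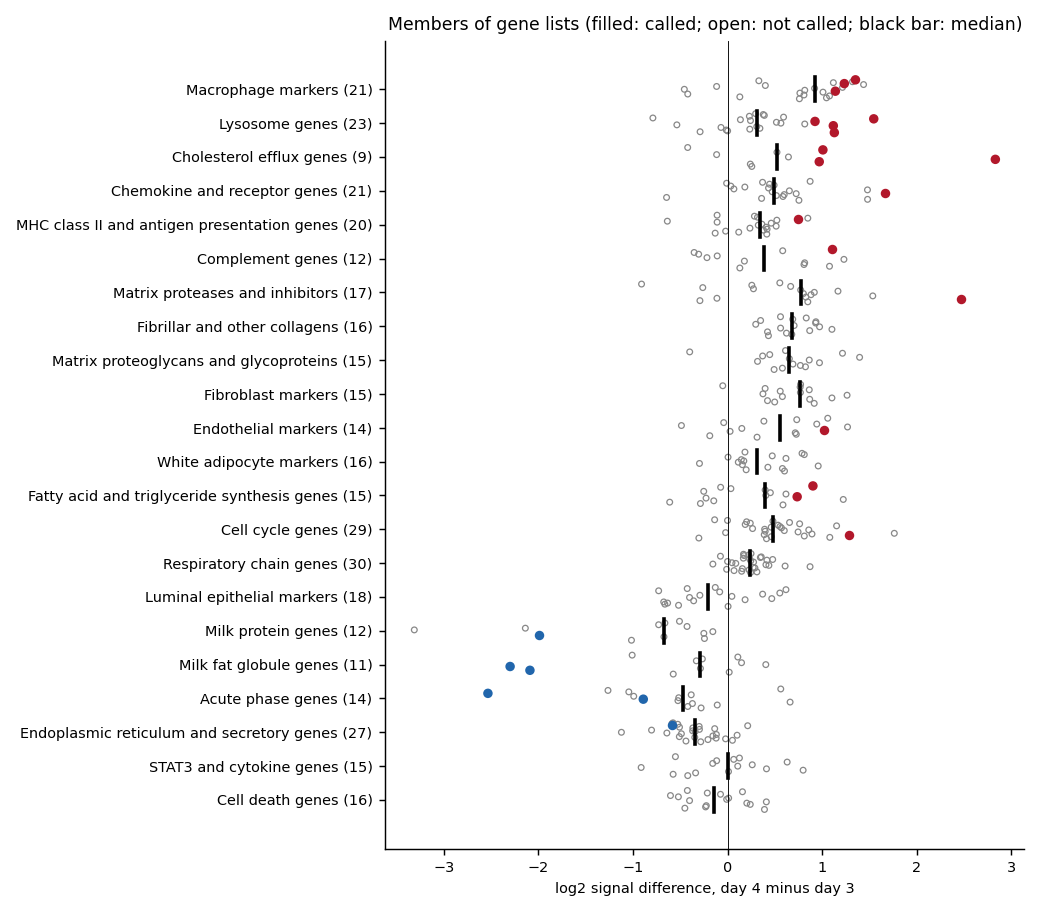
Log2 signal difference (day 4 minus day 3) of each tested member of 22 gene lists, with the number of members in parentheses. Filled points are called genes (red higher, blue lower), open points are not called, and black bars are list medians, from 0.92 for the macrophage markers to -0.67 for the milk proteins.

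Of 29 cell cycle genes, 1 was called higher and 0 lower, against 0.93% and 0.588% of all genes. Positive differences numbered 25, where 3735 of all 7311 genes had one, and the median was 0.48 (0.45 without day 3 mice B and C). Ccnd1, cyclin D1, which drives entry into the cell cycle and is a known target of prolactin signalling, had 125, 141 and 119.5 at day 4, against 67.4, 58.5 and 36.8 at day 3 (log2 difference 1.29 ± 0.26, adjusted p = 0.0054). The day 4 mice were alike and all higher, and the call was lost without day 3 mouse C. A second probe set of Ccnd1 gave a log2 difference of 0.22. It was also the 1 gene called among 11 prolactin and STAT5 genes, whose median was -0.08. Respiratory chain genes had 27 of 30 differences positive with a median of 0.24, and 0 called. Cycs, cytochrome c, had 86.5, 92.5 and 102 at day 4, against 35.8, 64.3 and 57.6 at day 3 (0.87 ± 0.26, adjusted p = 0.073).

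All milk protein genes tested had a lower mean signal at day 4, and 1 passed the test. Of 12 genes, 1 was called lower and 0 higher, against 0.588% and 0.93% of all genes. The signals of 10 did not overlap, all downward, against 9.9% of all genes downward and 21.9% in either direction. The median log2 difference was -0.67, and -0.50 without day 3 mice B and C. Csn1s2b, an alpha-s2-like casein, had 354, 1115 and 1408 at day 4, against 3069, 3365 and 3405 at day 3 (log2 difference -1.99 ± 0.44, adjusted p = 0.013). The day 3 mice were nearly equal and all above the day 4 mice, among which mouse A was the lowest, and the call was lost without day 4 mouse A, day 3 mouse B or day 3 mouse C. Csn1s2b was also not called with Arl2bp and Glo1 as covariates (adjusted p = 0.12) or with no floor (adjusted p = 0.079). With the covariates 0 of the 12 genes were called. Lalba, alpha-lactalbumin of lactose synthesis, had 1241, 549 and 865 at day 4, against 2268, 3618 and 6112 at day 3 (-2.14 ± 0.72, adjusted p = 0.14). Glycam1, a mucin of milk, had 205, 103 and 175 at day 4, against 346, 2852 and 3680.2 at day 3 (-3.31 ± 0.97, adjusted p = 0.072). Both were far lower at day 4 than in day 3 mice B and C, but day 3 mouse A lay near the day 4 mice for Glycam1. The whey acidic protein (Wap) had 4482, 5524 and 6651 at day 4, against 8239, 7539 and 10498 at day 3 (-0.66 ± 0.78, adjusted p = 0.81), and beta-casein (Csn2) had 3519, 3476 and 3752 at day 4, against 4411, 3835 and 4565 at day 3 (-0.25 ± 0.67, adjusted p = 0.94). Neither overlapped, and the standard errors of these 2 genes are wide because the fit pools all time points. The 12 genes together took 2.14% ± 0.210 of the summed signal at day 4 and 3.26% ± 0.538 at day 3 (SD, n = 3 each; two-sided exact permutation p = 0.10, the smallest that 3 against 3 mice allows). By mouse, these shares were 2.00%, 2.04% and 2.38% at day 4, against 2.96%, 2.94% and 3.88% at day 3.

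A pair of genes of milk fat handling fell. In the milk fat globule list 0 of 11 genes were called higher and 2 lower (0.93% and 0.588% of all genes), with a median of -0.29. Cidea, a lipid droplet protein needed for milk fat secretion, had 214, 207 and 360.4 at day 4, against 715, 1083 and 1588 at day 3 (log2 difference -2.09 ± 0.32, adjusted p = 7.7e-05). Fabp3, a fatty acid carrier abundant in the lactating gland, had 20.9, 37.9 and 37.0 at day 4, against 101, 98.8 and 350.4 at day 3 (log2 difference -2.30 ± 0.41, adjusted p = 0.0012). Neither gene overlapped, Cidea stayed called whichever mouse was left out, and the Fabp3 call was lost without day 3 mouse C, whose signal was the highest. Against day 3 mouse A alone the differences were -1.50 for Cidea and -1.71 for Fabp3. The same 2 genes are the ones called among 6 brown adipocyte markers, and the other 4 of that list had positive differences. The mucin Muc1 of the globule membrane and luminal surface had 1289, 1764 and 1749 at day 4, against 2178, 2510.1 and 3305 at day 3 (-0.73 ± 0.34, adjusted p = 0.35).

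Genes of the secretory machinery mostly had small negative differences. Of 27 endoplasmic reticulum and secretory genes 1 was called lower and 0 higher, against 0.588% and 0.93% of all genes. A negative difference was seen in 24, while 3735 of all 7311 genes had a positive one. In the list 12 did not overlap downward (724 of all genes, 9.9%), and the median was -0.35 (-0.42 without day 3 mice B and C). Srpr, a subunit of the signal recognition particle receptor, had 604, 728 and 774 at day 4, against 976, 1051 and 1129.9 at day 3 (log2 difference -0.59 ± 0.14, adjusted p = 0.022). With Arl2bp and Glo1 as covariates Srpr was not called (adjusted p = 0.13). Summed signals of the list were 10103, 9731 and 11759 at day 4, against 15396, 13621 and 14485 at day 3, and did not overlap. Luminal epithelial markers gave 0 calls of 18, with a median of -0.21. Krt8, a luminal keratin, had 1163, 1679.7 and 1999 at day 4, against 2080.3, 1466 and 1519.9 at day 3 with overlap (-0.08 ± 0.32, adjusted p = 0.97, with a positive value in 4 alternative fits). Elf5, a transcription factor of the secretory lineage, had 353, 593 and 581 at day 4, against 709, 852 and 819.5 at day 3 without overlap (-0.67 ± 0.29, adjusted p = 0.29). The smooth muscle actin Acta2 of myoepithelium had 412, 329.9 and 482 at day 4, against 318, 266 and 298 at day 3 (0.46 ± 0.34, adjusted p = 0.63), and the basal keratin Krt14 was too dim to be tested.

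Acute phase genes mostly had lower means at day 4, and a pair of them passed the test. In the list of 14 genes 2 were called lower and 0 higher, against 0.588% and 0.93% of all genes. A negative difference was seen in 12, while 3735 of all 7311 genes had a positive one. In the list 8 did not overlap downward (9.9% of all genes), and the median was -0.47 (-0.57 without day 3 mice B and C). Orm2, an alpha-1-acid glycoprotein, had 108, 87.2 and 143 at day 4, against 229, 1029 and 1099 at day 3 (log2 difference -2.53 ± 0.56, adjusted p = 0.012). Day 3 mice B and C were high, and day 3 mouse A stood between them and the day 4 mice, with a difference of -1.06 against it alone. Orm2 was not called with Arl2bp and Glo1 as covariates (adjusted p = 0.115). Lbp, which binds bacterial lipopolysaccharide, had 1262, 1906 and 2057 at day 4, against 2547, 3033 and 4078 at day 3 (log2 difference -0.89 ± 0.22, adjusted p = 0.024). Its day 4 signals were all lower, and its call was lost with Arl2bp and Glo1 as covariates (adjusted p = 0.077). Cd14, the partner receptor of Lbp, had 3720.1, 4464 and 5421 at day 4, against 5779, 5629 and 6632 at day 3 (-0.42 ± 0.29, adjusted p = 0.59), and serum amyloid A3 (Saa3) had 154, 274 and 350.2 at day 4, against 459.5, 592 and 754 at day 3 (-1.26 ± 0.43, adjusted p = 0.15). Both were lower in each day 4 mouse. STAT3 and cytokine genes showed no common direction, with 0 of 15 called and a median of 0.01. Stat3 had 472, 463 and 709 at day 4, against 716, 784 and 866 at day 3 (-0.55 ± 0.24, adjusted p = 0.31), and its feedback inhibitor Socs3 had 82.6, 134 and 103 at day 4, against 70.7, 114 and 109 at day 3 (0.13 ± 0.33, adjusted p = 0.94). Stat3 did not overlap and Socs3 did. Cell death genes gave 0 calls of 16 and a median of -0.14. Clu, the chaperone clusterin that marks regressing epithelium, had 1759, 1745 and 2355 at day 4, against 2224, 2815 and 4044 at day 3 (-0.60 ± 0.22, adjusted p = 0.20).

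The call with the lowest adjusted p was a fall of St6galnac6, a sialyltransferase that acts on gangliosides. Its signals were 6.2, 2.9 and 5.4 at day 4, against 40.5, 55.9 and 83.7 at day 3 (log2 difference -2.61 ± 0.25, adjusted p = 1.5e-09). All day 4 mice lay under the floor of 9.4, so it was at least 6.11-fold lower at day 4. This gene stayed called in every fit except that restricted to the 6 arrays, and it was the 1 gene still called against day 3 mouse A alone (-2.11, adjusted p = 0.0013). Its means were 9.4, the floor, at lactation day 7 and involution day 1, 50.8 at day 2, 57.4 at day 3, and 9.4 again at day 4 and day 20. Time points at the floor have no spread and narrow the pooled standard error, so the floor sets part of this adjusted p. It was 2.4e-05 with no floor, 0.00089 with the 15 involution arrays alone and 0.073 with the 6 arrays alone (limma). Nucb2, the precursor of the peptide nesfatin, had 50.2, 50.7 and 88.0 at day 4, against 173, 236 and 403 at day 3 (log2 difference -2.07 ± 0.25, adjusted p = 1.2e-06). Rnase1, a secreted ribonuclease, had 23.9, 92.5 and 101 at day 4, against 164, 252 and 299.7 at day 3 (log2 difference -1.93 ± 0.32, adjusted p = 0.00027). For both genes the call held in each left-out fit and with the covariates (adjusted p = 7.1e-05 for Nucb2 and 0.00089 for Rnase1). With no floor Nucb2 stayed called (adjusted p = 2.4e-06) and Rnase1 did not (adjusted p = 0.40). The same held with the 15 involution arrays alone (adjusted p = 0.0081 for Nucb2 and 0.055 for Rnase1). Other genes among the largest falls were Car6, a carbonic anhydrase secreted in saliva and milk (3.1, 6.1 and 13.6 at day 4, against 48.8, 85.5 and 63.9 at day 3, so 2 of the day 4 signals were under the floor, which sets part of its size; log2 difference -2.60 ± 0.55, adjusted p = 0.0081), Itga8, an integrin subunit (log2 difference -1.74 ± 0.36, adjusted p = 0.0068), Tyro3, a receptor kinase of the family that recognizes dying cells (log2 difference -1.69 ± 0.46, adjusted p = 0.048), Impdh1 of guanine nucleotide synthesis (log2 difference -1.57 ± 0.37, adjusted p = 0.021) and Trabd (log2 difference -2.33 ± 0.56, adjusted p = 0.021). None of these 5 overlapped between the days, and none was called with the covariates.

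On the other side, the largest rises among genes with 1 symbol, beside those already given, were Nav2 (102, 125 and 93.0 at day 4, against 18.9, 51.4 and 15.3 at day 3, log2 difference 2.10 ± 0.43, adjusted p = 0.0054), a cytoskeletal navigator protein known from neurons, and Gpr137b (129.7, 115 and 132 at day 4, against 95.5, 18.1 and 17.6 at day 3, log2 difference 2.01 ± 0.51, adjusted p = 0.031), a lysosomal membrane protein. Nav2 had no overlap and was no smaller against day 3 mouse A alone (2.48). Gpr137b was high in day 3 mouse A too, and against that mouse alone its difference was 0.40. The organic anion transporter Abcc3 (log2 difference 1.88 ± 0.50, adjusted p = 0.041), the quinone reductase Cryz (log2 difference 1.62 ± 0.33, adjusted p = 0.0054), the secreted ribonuclease Rnase4 (log2 difference 1.68 ± 0.41, adjusted p = 0.022), the ceramide kinase Cerk (log2 difference 1.67 ± 0.40, adjusted p = 0.021) and embigin, Emb (log2 difference 1.67 ± 0.46, adjusted p = 0.048), did not overlap between the days. With the covariates Abcc3 and Cryz were called (adjusted p = 0.041 and 0.026), and the other 3 were not. In the nerve and Schwann cell list 1 of 8 genes tested was called higher and 1 lower, against 0.93% and 0.588% of all genes. Pmp22, a myelin protein that other cells also make, was higher (log2 difference 1.08 ± 0.30, adjusted p = 0.049). Sox10, a transcription factor of Schwann cells and of some mammary epithelial cells, was lower (log2 difference -0.86 ± 0.22, adjusted p = 0.029).

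Further called genes were chosen after their values were seen. Pigr, the receptor that carries IgA into milk, had 796, 1369 and 1197 at day 4, against 2197, 3117 and 3215 at day 3 (log2 difference -1.36 ± 0.24, adjusted p = 0.0012). It was lower in every day 4 mouse, and it stayed called in each left-out fit and with the covariates (adjusted p = 0.014). Fkbp11, a folding enzyme of the secretory pathway (132, 245 and 249 at day 4, against 343, 407 and 1029 at day 3, log2 difference -1.39 ± 0.26, adjusted p = 0.0024), and Fam20c, the kinase that phosphorylates casein and other secreted proteins (114, 175 and 165 at day 4, against 260.5, 338 and 467 at day 3, log2 difference -1.22 ± 0.26, adjusted p = 0.0080), fell too. Their means at lactation day 7 had been 3151 for Fkbp11 and 568 for Fam20c. From involution day 1 to day 4 the means were 329, 670, 524 and 200 for Fkbp11 and 283, 442, 345 and 149 for Fam20c. The course was therefore not a steady decline. Also called lower were the phosphate carrier Slc20a1 (log2 difference -1.36 ± 0.29, adjusted p = 0.0081), the zinc and manganese carrier Slc39a8 (log2 difference -1.42 ± 0.39, adjusted p = 0.049) and the copper carrier Slc31a1 (log2 difference -0.98 ± 0.21, adjusted p = 0.0093). Cyp24a1, which degrades vitamin D, had 55.5, 97.7 and 86.2 at day 4, against 99.7, 285 and 167 at day 3 (log2 difference -1.12 ± 0.27, adjusted p = 0.021). A second probe set, not used in the count, gave -0.25 (adjusted p = 0.75). The first was at the floor at lactation day 7 and had a mean of 1085 at involution day 1. Stab1, a scavenger receptor of macrophages and sinusoidal endothelium, had 227, 258 and 195 at day 4, against 137, 92.0 and 98.4 at day 3 (log2 difference 1.07 ± 0.19, adjusted p = 0.0012), with no overlap and a call in each left-out fit. The major urinary protein genes Mup3 and Mup5 were called higher, but belong to a family of near-identical copies that one probe set may not tell apart. Mup5 had 616, 441 and 414 at day 4, against 430.4, 129 and 119 at day 3, so day 3 mouse A was at the day 4 level, and the difference against it alone was 0.17.

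In the days around this step the number of called genes differed widely. Day 2 against day 1 gave 554 genes (7.58%), day 3 against day 2 gave 0 (0.0%; 275 at an unadjusted p under 0.05, lowest adjusted p 0.27), and day 20 against day 4 gave 1213 (16.6%). These comparisons share the day 3 or day 4 arrays with the step described here, or each other's arrays. A test of whether the step to day 4 differed from the step before called 1 gene (0.0137%), St6galnac6, and 233 genes had an unadjusted p under 0.05, so for the other genes called at day 4 a difference between the 2 steps was not shown. Values along the course are therefore given side by side. Lyz2 had means of 126 at lactation day 7, 175 at involution day 1, 492 at day 2, 666 at day 3, 1567 at day 4 and 1107 at day 20. Tyrobp had 62.2, 86.4, 349, 403, 1030.0 and 397 at the same time points. Both had their highest of these 6 means at day 4. Cidea had 7410, 2079, 1611, 1071, 252 and 159, and Csn1s2b had 8488, 4594, 4208, 3276, 822 and 30. Both were lower at each later time point. Fasn had 5086, 918, 1770, 1808, 3012 and 4363, with its lowest mean at involution day 1. Lbp had 1051, 3839, 3798, 3158, 1704 and 313, with its highest mean at involution day 1.

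**Figure D5:**
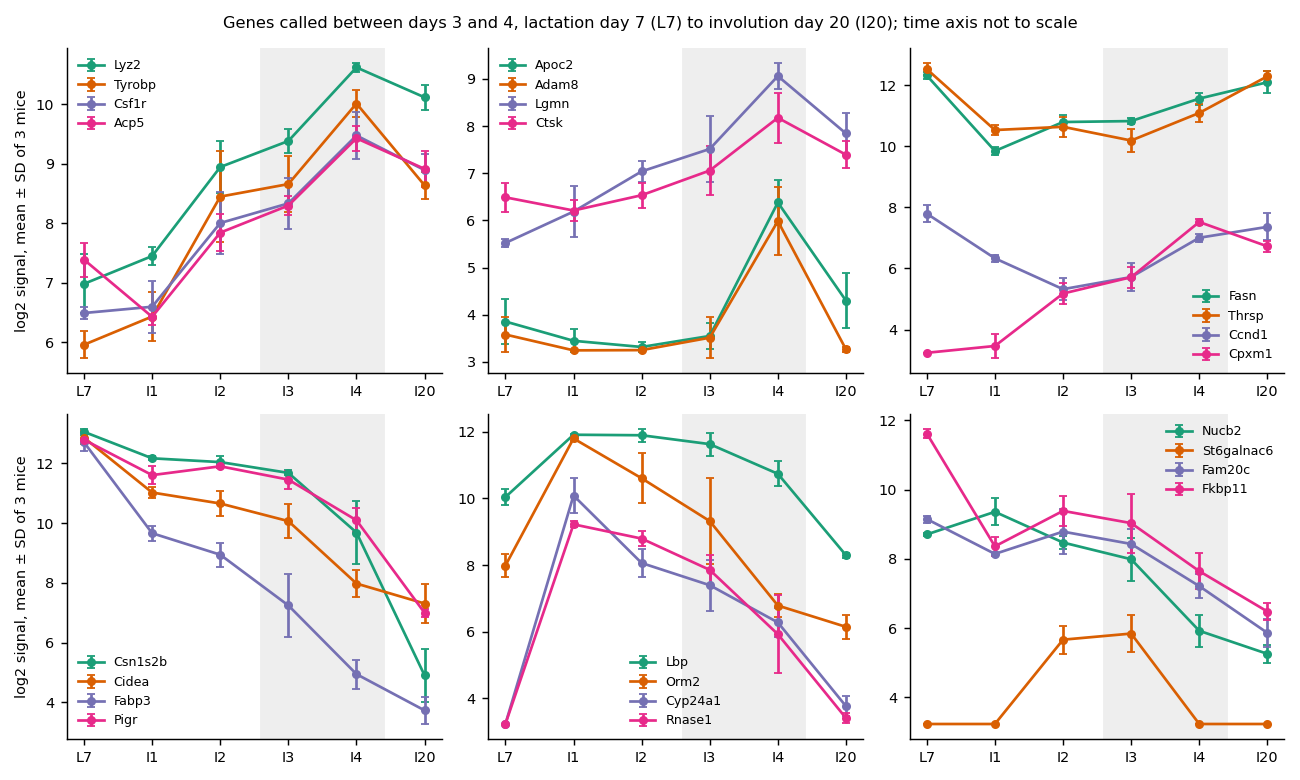
Mean log2 signal of 24 called genes at lactation day 7 and involution days 1, 2, 3, 4 and 20, with bars of 1 SD over 3 mice; time points are evenly spaced, and the grey band marks days 3 and 4. Myeloid genes in the upper left panel are highest at day 4, Apoc2 and Adam8 stand up at day 4, and Csn1s2b, Cidea and Fabp3 are lower at each later time point.

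Markers of tissue next to or within the gland varied between mice. The 14 skeletal muscle markers had a median of 0.63 (1.57 without day 3 mice B and C) with 0 called. Their summed signal was 5720, 1329 and 4384 at day 4, against 936, 3617 and 2044 at day 3, and Myh4, a fast myosin, ranged from 104 to 1012 at day 4 and from 35.6 to 318 at day 3. Erythroid markers (0 of 7 called, median -0.48) summed to 4783, 1856 and 1936 at day 4, against 4690, 4309 and 4265 at day 3, so day 4 mouse A had the day 3 level. The haemoglobin gene Hbb-b2 had 699.5, 180.1 and 226 at day 4, against 774, 667 and 569 at day 3 (-1.12 ± 0.40, adjusted p = 0.18). Both sums overlapped between the days, and their part in the differences above was not tested. Neutrophil markers had 0 of 6 called, and 7 were too dim to be tested.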

How the data were processed

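Glands of 54 mice were measured on 1-channel Affymetrix arrays with 12488 probe sets. The deposited values are signal intensities that the authors computed with the MAS5 algorithm, per the submitters' processing notes, and each array had a 2% trimmed mean near 100.06 on the 6 arrays compared. Its version was not given in the sources used here. Groups were taken from the titles, and the labels state that each array is a separate mouse.

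A floor of 9.4, the 25th percentile of all values, was applied before the log2 step. The 66 control probe sets were left out. To be kept, a probe set had to exceed 22.8, the 40th percentile, in every mouse of some time point, and 8640 did. Of 12422 non-control probe sets 10833 had exactly 1 symbol, 396 several and 1193 none, by the platform annotation; 10817 were matched by Entrez identifier to the reference gene table. For 1137 genes with several kept probe sets, the one with the highest mean log2 signal was used, which gave 7311 genes, 6441 of them with 1 symbol. The other 870, probe sets without exactly 1 symbol, were each counted as a gene. A single limma 3.58.1 model (R 4.3.3) over all 54 arrays estimated a mean for each time point, with an intensity trend in the eBayes step, 36 residual degrees of freedom and 6.77 prior ones. The two-sided p values were adjusted by Benjamini-Hochberg over all genes, and called means an adjusted p under 0.05. The spread behind each standard error comes from all 18 time points. Time points at the floor add no spread, which narrows the standard errors of genes dim at those time points. The number of mice, 3 per day, limits the precision. The pipeline was tested on simulated data. Tables and figures used Python 3.11.15, pandas 2.3.3, numpy 2.4.6, scipy 1.17.1 and matplotlib 3.10.9.

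Named genes are the 12 largest rises and 12 largest falls among called genes with 1 symbol and no overlap, the called members of 46 gene lists (up to 6 each, or up to 2 uncalled ones by size), and a set of fixed involution genes, of which Igfbp5 was not analysed here. Others are said to be chosen after their values were seen. The comparison, lists and rule were chosen with earlier results of these data known, so lists are described by counts and medians, with no set test. The milk share, 1 value per mouse, was given an exact permutation test. Alternatives covered floor, scaling, filter, probe set collapsing, arrays in the fit, variance model, array weights, replicate block, covariates, a stricter threshold, and left-out mice. Leaving out a pair of mice was added after the data were seen.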

Additional observations from a re-analysis of the deposited data

Results flagged for a closer look

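St6galnac6 was the 1 gene for which the step to day 4 differed from the step before it by a direct test (limma contrast of the 2 steps, Benjamini-Hochberg adjustment over 7311 genes). The difference of the steps was -2.79 ± 0.43 on the log2 scale (adjusted p = 0.00055). The step from day 3 to day 4 was -2.61, with all 3 day 4 mice under the floor, and the step from day 2 to day 3 was 0.18 (adjusted p = 1.0). The call was lost with no floor, with the 15 involution arrays alone, with the arrays of days 2, 3 and 4 alone and without day 3 mice B and C. Groups of 3 mice are too small for a check of single outlying arrays.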

How the results depend on the processing

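The count of called genes, 111 (68 higher, 43 lower), depended on the fit, and the causes were not tested. It was 68 (41 and 27) with no floor, 75 (39 and 36) with median scaling, 88 (47 and 41) with no filter, 24 (13 and 11) with the 15 involution arrays alone, 0 with the 6 arrays alone (limma; 1170 at an unadjusted p under 0.05), 547 (342 and 205) with array quality weights, 25 (14 and 11) with Arl2bp and Glo1 as covariates, 28 (11 and 17) at a threshold of 0.01, 1 (0 and 1) without day 3 mice B and C, and 81 (45 and 36) with the Gapdh ratio as a covariate. Leaving out 1 mouse gave 12 to 217 (6 to 141 higher, 6 to 76 lower). Without day 4 mouse B and day 3 mouse A it was 106 (62 and 44). With all non-control probe sets 51 were higher and 49 lower. The replicate block by mouse letter gave 123 (77 and 46) and lost 0 of the 102 calls. Same-letter deviations correlated at 0.145, 0.066 and 0.114, and other-letter ones at -0.156 to 0.065. The letters were not taken as pairs in the main fit, and whether they mark something the mice share was not tested. The contrast of steps, 1 gene, gave 0 with no floor, with the arrays of days 2, 3 and 4 alone, the 15 arrays or without day 3 mice B and C, 8 with the floor raised to the 40th percentile, 2 with all kept and 3 with all non-control probe sets, 22 with array weights, 8 without day 4 mouse B and day 3 mouse A, and 1 to 9 with 1 mouse left out. Day 3 against day 2, with 0 genes, gave 8 with the higher floor, 3 with all non-control probe sets, 2 with array weights, 1 without day 4 mouse B and day 3 mouse A, 3 without day 3 mice B and C and 0 to 2 with 1 mouse left out. Day 2 against day 1, with 554, gave 1265 with array weights and 216 at 0.01. Day 20 against day 4, with 1213, gave 1871 with array weights, 741 with the covariates, 605 at 0.01 and 687 to 1209 with 1 mouse left out. The difference in milk share was -1.12 percentage points, -0.97 with quantile normalization and -0.81 to -1.28 with 1 mouse left out. Of the 102 called genes with 1 symbol 0 changed sign in any fit. In the fits with mice left out this was fixed beforehand for genes without overlap. Among 32 genes given but not called, Krt8 gave 0.105 with array weights, -0.255 to 0.136 with 1 mouse left out and 0.0306 without day 4 mouse B and day 3 mouse A; Socs3 gave -0.0917 to 0.295 with 1 mouse left out and -0.272 without day 4 mouse B and day 3 mouse A; Plau gave -0.0244 to 0.625 with 1 mouse left out and -0.126 without day 3 mice B and C. Dim genes near the floor have bounded differences.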

Other observations

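Among gene groups not described above, glycolysis genes (0 of 15 called, median 0.13), lactose and glucose supply genes (0 of 10, median 0.07) and fatty acid oxidation genes (0 of 15, median -0.18) had no called member. Slc2a1, the basal glucose carrier, had signals of 35.9, 31.0 and 47.9 at day 4, against 59.1, 87.1 and 93.7 at day 3 (log2 difference -1.06 ± 0.42, adjusted p = 0.24). Ucp3, a mitochondrial carrier induced by fatty acids, had 101, 104 and 97.3 at day 4, against 162, 287 and 295 at day 3 (-1.24 ± 0.39, adjusted p = 0.11). In both genes all day 4 mice were lower. Igf1, a growth factor made by stroma and macrophages, had 420.3, 223 and 241 at day 4, against 158, 152 and 146 at day 3 (0.90 ± 0.33, adjusted p = 0.19), with all day 4 mice higher.

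On chromosome 15, 10 of 273 tested genes (3.66%) were called lower, where 32 of 6158 genes on other chromosomes (0.52%) were. This was seen after the values were known and has no test. The genes are Desi1, Sox10, Ndrg1, Fam83h, Arfgap3, Psca, Cacng2, Fkbp11, Foxh1 and Trabd, and the median of all 273 was 0.02. With Arl2bp and Glo1 as covariates only Ndrg1 and Fkbp11 stayed called (adjusted p = 0.041 and 0.0135). Against day 3 mouse A alone the falls were smaller for all but Psca (-1.57, from -1.20). Cacng2 went from -1.24 to -0.39 and Desi1 from -0.69 to -0.28. All day 4 signals of Cacng2 (4.3, 3.6 and 5.9) were under the floor. A second probe set gave -0.09 for Desi1 and -0.56 for Sox10, neither called, and -0.75 for Ndrg1, which was called.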
